A study of Mus musculus with 6 samples.

Results

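The miR-99, miR-100 and miR-125 families of microRNAs (miRNAs) were examined in skeletal muscle of mice with and without pressure overload of the heart. All rows of mature mouse miRNAs (prefix mmu) named miR-99a, miR-99b, miR-100, miR-125a or miR-125b were taken by name, without use of their values. This gave 10 of the 392 listed miRNAs, and 9 of them passed the filter on low counts and were tested among 322 miRNAs. The mice were C57BL6 males, 16 weeks old and kept on normal chow, and their skeletal muscle gave 2 groups of 3 libraries. The Sham group is recorded as the control, and the TAC group had transverse aortic constriction, a surgical narrowing of the aortic arch that loads the left ventricle and leads in time to heart failure. A treatment time of 8 weeks is recorded for both groups. The labels name neither the muscle nor whether the libraries came from separate animals, so the p-values measure only the spread between these libraries. Small RNA was read with unique molecular identifiers (UMIs), which mark each molecule before amplification, and miRNA UMIs per library ran from 1179365 in Sham 3 to 3440232 in Sham 1.

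A miRNA hairpin yields a 5p and a 3p strand. One of them, the guide, is loaded into Argonaute and pairs with messenger RNAs through its seed, bases 2 to 8 from the 5′ end. In mammals the families lie in 3 paralogous clusters, each with a miR-99 or miR-100 hairpin, a let-7 hairpin and a miR-125 hairpin. miR-125 is the vertebrate relative of the nematode lin-4 miRNA. miR-99 and miR-100 are known to repress mTOR and the IGF-1 receptor, and miR-125b is known to repress IGF-2 in mouse myoblasts.

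The guide strands are shown because members with 1 seed can pair with the same sites, and because the few bases outside the seed are all that tells them apart. Capitals mark the seed. The sequences are RefSeq's for GRCm38.p6, and all members matched.
mmu-miR-99a-5p: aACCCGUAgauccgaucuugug
mmu-miR-100-5p: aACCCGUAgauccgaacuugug
mmu-miR-99b-5p: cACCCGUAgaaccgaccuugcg
mmu-miR-125b-5p: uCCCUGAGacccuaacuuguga
mmu-miR-125a-5p: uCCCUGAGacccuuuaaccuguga
mmu-miR-351-5p: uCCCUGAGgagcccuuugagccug
The miR-99 and miR-100 guides share the seed ACCCGUA and the miR-125 guides the seed CCCUGAG, which miR-351-5p, a miRNA of another hairpin on chromosome X, also carries. Counted from the 5′ end, miR-99a-5p and miR-100-5p differ by the single base U16A, and how reads of such near-identical strands were divided is not given. miR-99b-5p differs from miR-99a-5p at 4 positions (A1C, U11A, U16C and U21C).

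Each cluster lies on the forward strand. On chromosome 16, Mir99a (chr16:77598936-77599000, GRCm38), Mirlet7c-1 and Mir125b-2 span 47408 bases within introns of the noncoding gene Mir99ahg. On chromosome 9, Mir100 (chr9:41531425-41531504), Mirlet7a-2 and Mir125b-1 (chr9:41581926-41582002) span 50578 bases within introns of the noncoding genes 3110039I08Rik and Gm49317, and Mir125b-1 also overlaps an exon of Gm28119. On chromosome 17, Mir99b (chr17:17830188-17830257), Mirlet7e and Mir125a (chr17:17830812-17830879) span 692 bases of the protein-coding gene Spaca6, with Mir99b and Mirlet7e intronic and Mir125a exonic. The search took these host genes and the names Mir100hg and 2610203C20Rik, with 83 transcripts in all. None of the 83 was among the 449 mRNA and other RNA transcripts listed, so no fragment level can be given for them. Both miR-125b hairpins give the same 5p strand, and only their 3p strands tell the loci apart.

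Together the 10 members held 3.55% ± 1.08 (SD, n = 3) of all miRNA molecules counted in Sham libraries and 3.10% ± 0.537 (SD, n = 3) in TAC libraries, from 56522 UMIs in the shallowest library to 102991 in the deepest. The miR-125 guides accounted for 2.73% ± 0.789 in Sham and 2.25% ± 0.406 in TAC, and the miR-99 and miR-100 guides for 0.809% ± 0.304 and 0.839% ± 0.142. The 5 listed 3p strands together held 0.0153% ± 0.00490 and 0.0151% ± 0.00162. The families were thus present almost wholly as their 5p strands.

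Levels below are UMIs per 1000000 miRNA UMIs after TMM scaling (CPM), a scaling that sets the bulk of miRNAs level between libraries. Adapter ligation favours some sequences, so the order of different miRNAs is that of captured molecules. miR-125b-5p was the most abundant member and ranked 9 of all listed miRNAs by level. It was above miR-125a-5p in 6 of 6 libraries. miR-125a-5p and miR-99a-5p did not have a fixed order, with miR-125a-5p higher in 4 of 6 libraries. Below them, miR-99a-5p exceeded miR-100-5p, and miR-100-5p exceeded miR-99b-5p, in 6 of 6 libraries. Among the 3p strands the neighbours miR-125b-2-3p and miR-125b-1-3p kept their order in 5 of 6 libraries, as did miR-125b-1-3p and miR-99b-3p. miR-99b-3p was above miR-99a-3p in 5 libraries and equal to it in 1.

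**Figure D1:**
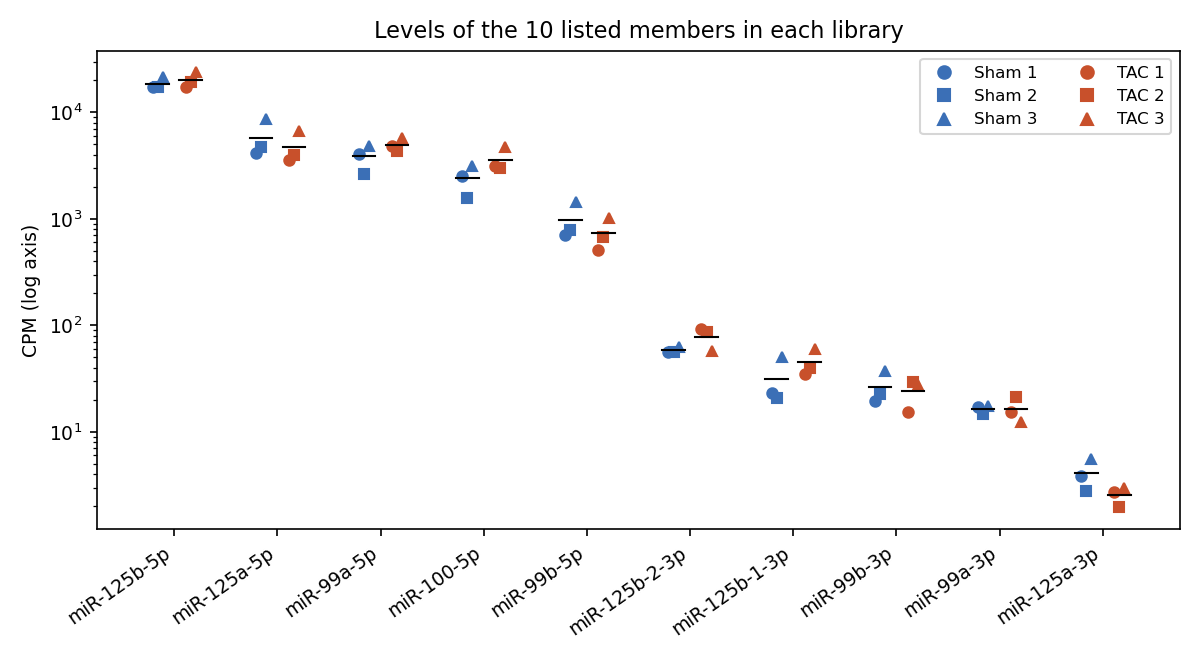
Levels of the 10 members in each library, in CPM on a log axis, with Sham in blue and TAC in orange, 1 symbol shape per replicate number and a short line at each group mean (n = 3). The 5p strands lie at 513 CPM or above and the 3p strands at 92.1 CPM or below, and the groups overlap for every member.

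No member passed the test of TAC against Sham. By edgeR's quasi-likelihood test with Benjamini-Hochberg adjustment over all 322 miRNAs, 0 of the 9 tested members passed the threshold of 0.05, and 0 had an unadjusted p below 0.05. DESeq2 called none of them either. Of all tested miRNAs 22% were called, 6.21% as higher and 15.8% as lower in TAC, and 33.2% had an unadjusted p below 0.05. The Sham and TAC values overlapped for all 9 tested members, whereas they did not overlap for 40.4% of all tested miRNAs. Log2 fold changes were above 0 for 5 members and below 0 for 4, with a median of 0.11 against 0.041 over all tested miRNAs. In whole-muscle RNA, a different number of cells of a type and a different amount of RNA per cell cannot be told apart.

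On chromosome 9, the level of mmu-miR-100-5p was 2519, 1586 and 3112 CPM in Sham 1, 2 and 3 and 3104, 2978 and 4727 CPM in TAC 1, 2 and 3. Sham 2 was the lowest and TAC 3 the highest library, and Sham 3 lay above TAC 1 and TAC 2, so the groups overlapped. The log2 fold change was 0.58 with a standard error (SE) of 0.30 (edgeR adjusted p = 0.213). It was 0.34 without Sham 2, 0.35 without TAC 3 and 0.87 without Sham 3. TAC exceeded Sham within each of the 3 replicate numbers, and a fit with the replicate number as a block gave 0.60, SE 0.17 and an edgeR adjusted p of 0.0300. That fit called 34.5% of all miRNAs, 12.7% as higher in TAC, and miR-100-5p was the single member among them.

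The 3p strand of the other hairpin of this cluster, miR-125b-1-3p, is counted from Mir125b-1 alone. It stood at 23.1, 20.7 and 50.6 CPM in Sham and 34.7, 39.6 and 60.1 CPM in TAC. Libraries numbered 3 were the highest of each group, and Sham 3 exceeded both TAC 1 and TAC 2. The log2 fold change was 0.53, SE 0.41 (edgeR adjusted p = 0.378), and it ranged from 0.28 without TAC 3 to 1.09 without Sham 3. These levels rest on 52 to 121 UMIs per library.

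On chromosome 16, mmu-miR-99a-5p was measured at 4038, 2655 and 4862 CPM in Sham and at 4811, 4356 and 5681 CPM in TAC. Sham 2 was again the lowest library and TAC 3 the highest. Sham 3 lay between TAC 1 and TAC 3, so the groups overlapped, with a log2 fold change of 0.36, SE 0.25 (edgeR adjusted p = 0.339). It was 0.14 without Sham 2 and 0.62 without Sham 3. Its passenger strand mmu-miR-99a-3p was at 17.2, 14.8 and 17.6 CPM in Sham and 15.2, 21.0 and 12.4 CPM in TAC, a log2 fold change of -0.024, SE 0.29 (edgeR adjusted p = 0.956). Its highest and lowest library were both TAC.

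The strand counted from Mir125b-2 alone, mmu-miR-125b-2-3p, was at 55.8, 55.9 and 62.5 CPM in Sham and 92.1, 86.1 and 57.1 CPM in TAC. TAC 1 and TAC 2 were above every Sham library, and TAC 3 was among them. The log2 fold change was 0.44, SE 0.26 (edgeR adjusted p = 0.262). Without both libraries numbered 3 it was 0.67, with an edgeR adjusted p of 0.0195, and that of miR-125b-1-3p was 0.75, with an edgeR adjusted p of 0.0316. In that fit of 2 against 2 libraries 129 of 337 miRNAs were called.

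The guide that both hairpins supply, mmu-miR-125b-5p, was at 17117, 17176 and 21571 CPM in Sham and 17157, 19383 and 23660 CPM in TAC. The groups covered nearly the same range, with the libraries numbered 3 highest in each. The log2 fold change was 0.11, SE 0.19 (edgeR adjusted p = 0.716). With library size as the only scaling it was -0.19, a setting that moved the median of all tested miRNAs by -0.28 against TMM, and without TAC 3 it was -0.016.

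**Figure D2:**
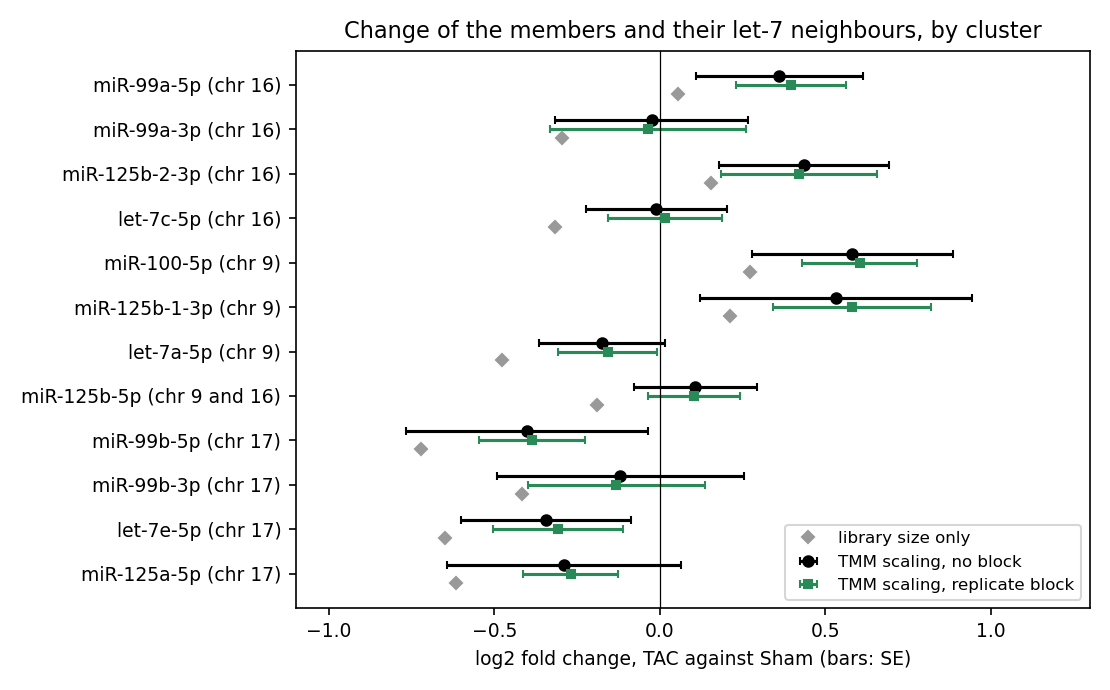
Log2 fold change of TAC against Sham for each tested member and the let-7 guide of its cluster, with black circles for TMM scaling, green squares for the fit with a replicate block and grey diamonds for library size as the only scaling; bars show SE from 3 libraries per group. The chromosome 17 strands lie below 0 in all 3 fits, miR-100-5p and both miR-125b 3p strands lie above 0, and miR-125b-5p changes side with the scaling.

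On chromosome 17 the 5p strands had fold changes below 0. miR-99b-5p was at 702, 780 and 1431 CPM in Sham and 513, 669 and 1022 CPM in TAC, a log2 fold change of -0.40, SE 0.37 (edgeR adjusted p = 0.454). miR-125a-5p was at 4106, 4730 and 8571 CPM in Sham and 3605, 3947 and 6681 CPM in TAC, a log2 fold change of -0.29, SE 0.35 (edgeR adjusted p = 0.581). For both, Sham 3 was the highest library of all and TAC was below Sham within each of the 3 replicate numbers. Without Sham 3 the fold changes turned, to 0.060 for miR-99b-5p and 0.18 for miR-125a-5p. With the replicate block they were -0.39 and -0.27, with edgeR adjusted p-values of 0.0992 and 0.175.

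The 3p strands of chromosome 17 were rare. miR-99b-3p was at 19.4, 22.7 and 37.2 CPM in Sham and 15.2, 29.3 and 27.8 CPM in TAC, with a log2 fold change of -0.12, SE 0.37 (edgeR adjusted p = 0.837). Sham 3 held its highest and TAC 1 its lowest value. miR-125a-3p was below the filter with 14, 7 and 8 UMIs in Sham and 7, 4 and 6 UMIs in TAC, the deepest library, Sham 1, giving the most. When all listed miRNAs were fitted without the filter its log2 fold change was -0.60, SE 0.48 (edgeR adjusted p = 0.416).

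Ratios within a library need no scaling between libraries. Within the summed UMIs of the miR-99 and miR-100 guides, miR-99a-5p held 53.4% ± 2.02 in Sham and 53.7% ± 3.74 in TAC. miR-100-5p held 34.7%, 31.6% and 33.1% in Sham and 36.8%, 37.2% and 41.4% in TAC. miR-99b-5p held 9.67%, 15.5% and 15.2% in Sham and 6.09%, 8.36% and 8.94% in TAC. Every TAC library thus had a larger share of miR-100-5p and a smaller share of miR-99b-5p than every Sham library, while the shares of miR-99a-5p overlapped. Such a separation was common, since the levels of 40.4% of tested miRNAs and the ratios of 41.9% of all pairs of tested miRNAs did not overlap between the groups. The exact two-sided permutation test gave p = 0.1 for miR-100-5p and for miR-99b-5p, which is the smallest p that 3 against 3 libraries allow. These shares were not among the results chosen beforehand, and their p-values were not adjusted.

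Within the miR-125 guides, miR-125b-5p held 76.9% ± 4.73 in Sham and 81.2% ± 2.83 in TAC, and miR-125a-5p the remaining 23.1% and 18.8%. The groups overlapped (exact permutation p = 0.3), with miR-125a-5p lower in TAC within each of the 3 replicate numbers.

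**Figure D3:**
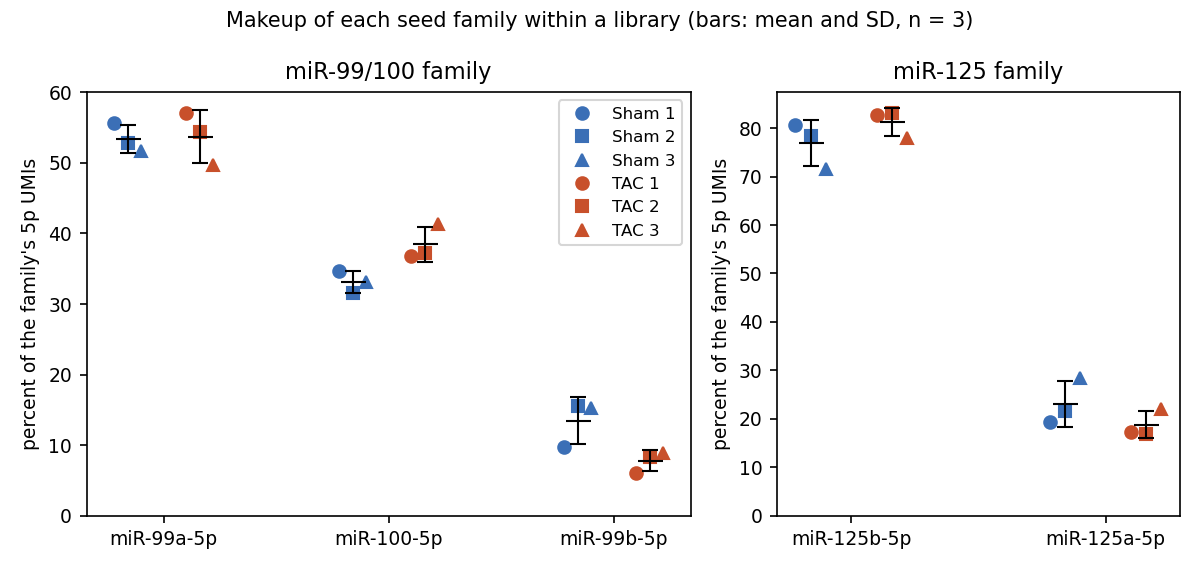
Share of each guide in the summed 5p UMIs of its seed family, in percent, per library, with Sham in blue and TAC in orange; horizontal lines and bars are mean and SD (n = 3). For miR-99b-5p the TAC libraries lie at 6.09% to 8.94% and the Sham libraries at 9.67% to 15.5%, while the groups overlap for miR-99a-5p and both miR-125 guides.

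The ratio of miR-100-5p to miR-99b-5p was 3.59, 2.03 and 2.18 in Sham and 6.05, 4.45 and 4.62 in TAC. Every TAC library lay above every Sham library, by a mean of 0.99 on the log2 scale or 1.99-fold (exact permutation p = 0.1, adjusted p = 0.413 over 11 ratios). Across all alternatives tried the difference in log2 ratio lay between 0.84 and 1.25. This ratio was chosen after the values were seen, and 41.9% of all pairs of tested miRNAs also had ratios that did not overlap, so the separation is not particular to these members.

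Of the other ratios between members, that of miR-99a-5p to miR-100-5p also separated the groups, at 1.60, 1.67 and 1.56 in Sham and 1.55, 1.46 and 1.20 in TAC. The mean difference was -0.21 on the log2 scale (exact permutation p = 0.1, adjusted p = 0.413 over 11 ratios), and Sham 3 and TAC 1 were nearly equal. It too was chosen after the values were seen, and the ratios of 41.9% of all pairs of tested miRNAs also did not overlap. The ratio of miR-99a-5p to miR-99b-5p differed by 0.78 on the log2 scale with overlapping groups (exact permutation p = 0.2). The ratio of miR-99a-5p to miR-125b-5p, guides of the separate seeds, differed by 0.29 (exact permutation p = 0.3), and that of miR-125b-5p to miR-125a-5p by 0.37 (exact permutation p = 0.3). The ratio of miR-125b-1-3p to miR-125b-2-3p, which sets the chromosome 9 hairpin against the chromosome 16 hairpin, was 0.413, 0.371 and 0.809 in Sham and 0.377, 0.460 and 1.05 in TAC (exact permutation p = 0.6). Here the libraries numbered 3 stood apart from the others in both groups.

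The ratio of the 5p to the 3p strand did not separate the groups for any of the 5 hairpins with both strands listed. Mir100 had no listed 3p strand and has no such ratio here. The ratio was largest for miR-125a, at 1056 to 1694 in Sham and 1320 to 2242 in TAC, and lowest for miR-99b, at 34.3 to 38.4 in Sham and 22.8 to 36.8 in TAC. miR-99a lay between, at 180 to 277 in Sham and 207 to 457 in TAC. With miR-125b-5p of both loci as numerator, the ratio to miR-125b-1-3p was 426 to 828 in Sham and 394 to 494 in TAC, and to miR-125b-2-3p 307 to 345 and 186 to 414. The log2 differences, TAC minus Sham, were 0.45, -0.25, 0.33, -0.48 and -0.30 for miR-99a, miR-99b, miR-125a, miR-125b-1 and miR-125b-2, with exact permutation p-values of 0.3, 0.3, 0.4, 0.3 and 0.4. All 5 pairs of groups overlapped.

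How closely the guides of a cluster followed each other over the libraries differed between pairs. The log2 ratio of miR-99b-5p to miR-125a-5p, whose hairpins lie within the same 692 bases, had an SD of 0.104 over all 6 libraries, the lowest of the 28 pairs among the 8 guides of the clusters. Among the 1770 pairs of the 60 tested miRNAs at least as abundant as miR-99b-5p, 7 had a lower SD, and the median was 0.485. The ratio of let-7e-5p, from the hairpin between them, to miR-99b-5p had an SD of 0.317 and to miR-125a-5p 0.325. miR-99a-5p and miR-100-5p, from different chromosomes, had an SD of 0.169, the third lowest of the 28. Of the 1770 pairs, 50 had a lower SD. These strands differ by U16A alone, and how reads of such near-identical strands were divided is not given. miR-99a-5p and miR-125b-5p, which share chromosome 16, had an SD of 0.285, and miR-100-5p and miR-125b-5p, which share chromosome 9, one of 0.384, rank 17 of the 28. The largest values were 0.637 for miR-100-5p with let-7e-5p and 0.631 for miR-100-5p with miR-99b-5p, across chromosomes 9 and 17. These SDs describe 6 libraries with 1 depth each.

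**Figure D4:**
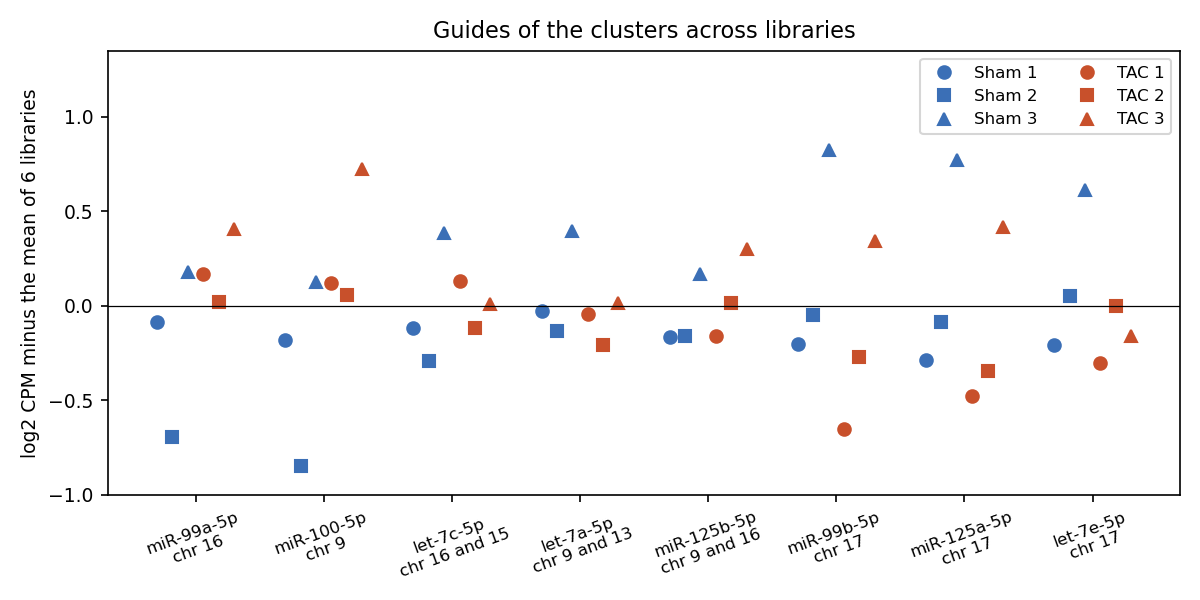
Log2 CPM of the 8 guides of the clusters in each library, minus the miRNA's own mean over the 6 libraries, with Sham in blue, TAC in orange and 1 symbol shape per replicate number. miR-99a-5p and miR-100-5p are lowest in Sham 2 and highest in TAC 3, while miR-99b-5p, miR-125a-5p and let-7e-5p are highest in Sham 3.

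By root mean square difference of log2 CPM, centred on each miRNA's mean over 6 libraries, the 3 miRNAs most like miR-99a-5p were miR-181a-5p (0.116), miR-1306-3p (0.135) and let-7i-5p (0.141), and miR-100-5p came next of 321 (0.155, median of all 0.588). None of these 3 was called in TAC. Those most like miR-125b-5p were miR-106b-3p (0.0903), miR-339-5p (0.112) and miR-128-3p (0.124), against a median of 0.520. The nearest other member to miR-125b-5p was miR-99a-5p, which ranked 38 (0.260).

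The let-7 strands of the clusters were read beside the members, since their hairpins lie between the members' hairpins. let-7 guides are known for promoting differentiation. Of 6 listed rows of let-7a, let-7c and let-7e, 4 were tested, 0 were called and 0 had an unadjusted p below 0.05, with a median log2 fold change of -0.26. let-7e-5p, from chromosome 17 alone, was at 862, 1034 and 1525 CPM in Sham and 806, 995 and 891 CPM in TAC, a log2 fold change of -0.34, SE 0.26 (edgeR adjusted p = 0.364). Sham 3 was far above the other libraries, which overlapped. let-7c-5p and let-7a-5p, which come from further loci as well, had log2 fold changes of -0.010 and -0.17 (edgeR adjusted p = 0.975 and 0.536). The row shared by let-7a-1-3p and let-7c-2-3p, strands of hairpins outside the 3 clusters, had -0.47 (edgeR adjusted p = 0.513). let-7c-1-3p, with 3 to 12 UMIs, and let-7e-3p, with 3 to 13 UMIs, were below the filter. All 17 listed let-7 rows gave 13 tested and 0 called. Of all tested miRNAs, 22% were called and 33.2% had an unadjusted p below 0.05.

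miR-351-5p, which shares the miR-125 seed, was a small part of the molecules with that seed. It stood at 68.6, 89.8 and 110 CPM in Sham and 33.2, 53.3 and 79.5 CPM in TAC. TAC was below Sham within each of the 3 replicate numbers, but TAC 3 exceeded Sham 1. The log2 fold change was -0.69, SE 0.36 (edgeR adjusted p = 0.213), and with the replicate block -0.75, SE 0.21 (edgeR adjusted p = 0.0264). The fit with that block called 34.5% of all tested miRNAs, and its pairing of libraries is uncertain.

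Mappable sequences without annotation were listed with their positions, and 73 of 1832 began within the member hairpins, with 7315 UMIs over all libraries. Of these, 68 matched a mature strand with 1 substitution and 2 with more. The other 3 matched the hairpin without a substitution but began before the annotated start of the strand. By the hairpin strand at the listed position, 41 belonged to miR-125b-5p (4410 UMIs), 10 to miR-125a-5p, 8 to miR-99a-5p, 7 to miR-100-5p, 4 to miR-99b-5p and 3 to miR-125b-2-3p. The T16C sequence placed at miR-99a-5p, with 49 UMIs, is also 1 substitution away from miR-100-5p. The list holds only sequences that reached 10 UMIs in some library, so the shares given here are minima. What gave rise to the substitutions was not tested.

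The 3 of these sequences with the most UMIs were A10C of miR-100-5p with 546 UMIs, C11A of miR-125b-5p with 466 UMIs and A9C of miR-125b-5p with 348 UMIs. Positions count from the 5′ end of the mature strand. For each guide, the most abundant sequence of its leading A-to-C change is shown, with the substituted base in capitals, since that base falls 1 or 2 positions after the seed in all 5.
miR-99a-5p A10C: aacccgtagCtccgatcttgtg
miR-100-5p A10C: aacccgtagCtccgaacttgtg
miR-99b-5p A10C: cacccgtagCaccgaccttgcg
miR-125b-5p A9C: tccctgagCccctaacttgtga
miR-125a-5p A9C: tccctgagCccctttaacctgt

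Summed over sequence lengths and pooled over libraries, A10C had 265 UMIs beside 11259 in the annotated row of miR-99b-5p, a ratio of 2.35%. It had 948 beside 41036 for miR-100-5p (2.31%) and 492 beside 60789 for miR-99a-5p (0.809%). These sequences were listed apart from the annotated rows, and whether those rows also count them is not given. Such ratios are called shares here. Among all listed miRNAs with a RefSeq mature sequence (343 of 392), 362 pairs of a miRNA and a substitution were listed, over 43 miRNAs, with a median of 0.0572%. The 3 members ranked 3, 4 and 7 of the 362, and were the 3 highest of 18 A-to-C changes. Because of the listing minimum, miRNAs with few UMIs enter only with large shares, so these ranks and the median depend on depth as well. The next A-to-C change was A11C of miR-10b-5p at 0.495%. A9C of miR-125b-5p was at 0.172% and A9C of miR-125a-5p at 0.154%.

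An A at position 10 was not enough for the change to be listed. Of 15 miRNAs with at least 10000 UMIs over all libraries and A at position 10, A10C was listed for these 3. It was listed for none of the other 12, which had 11829 to 343542 UMIs. A sequence under 10 UMIs in every library is not listed, so the change may still be present in these 12. In the miR-99 and miR-100 guides this A ends the letters GUAGA. Searched on the mature strand, GUAGA was found in 15 of the listed miRNAs with a sequence (4.37%) and in 55 of 1679 RefSeq mature names (3.28%). An A-to-C change at its last A was listed for 5 of the 15, the 3 members and miR-10a-5p (0.236%) and miR-10b-5p (0.495%). Of the rest, all but let-7f-5p had 42 to 7789 UMIs over all libraries, fewer than each of the 5. The listing minimum could hide the change in these, so the count of 5 depends on depth as well. The change was also not listed for let-7f-5p, which has GUAGA and 343542 UMIs. These are descriptions of letters, chosen after the values were seen.

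**Figure D5:**
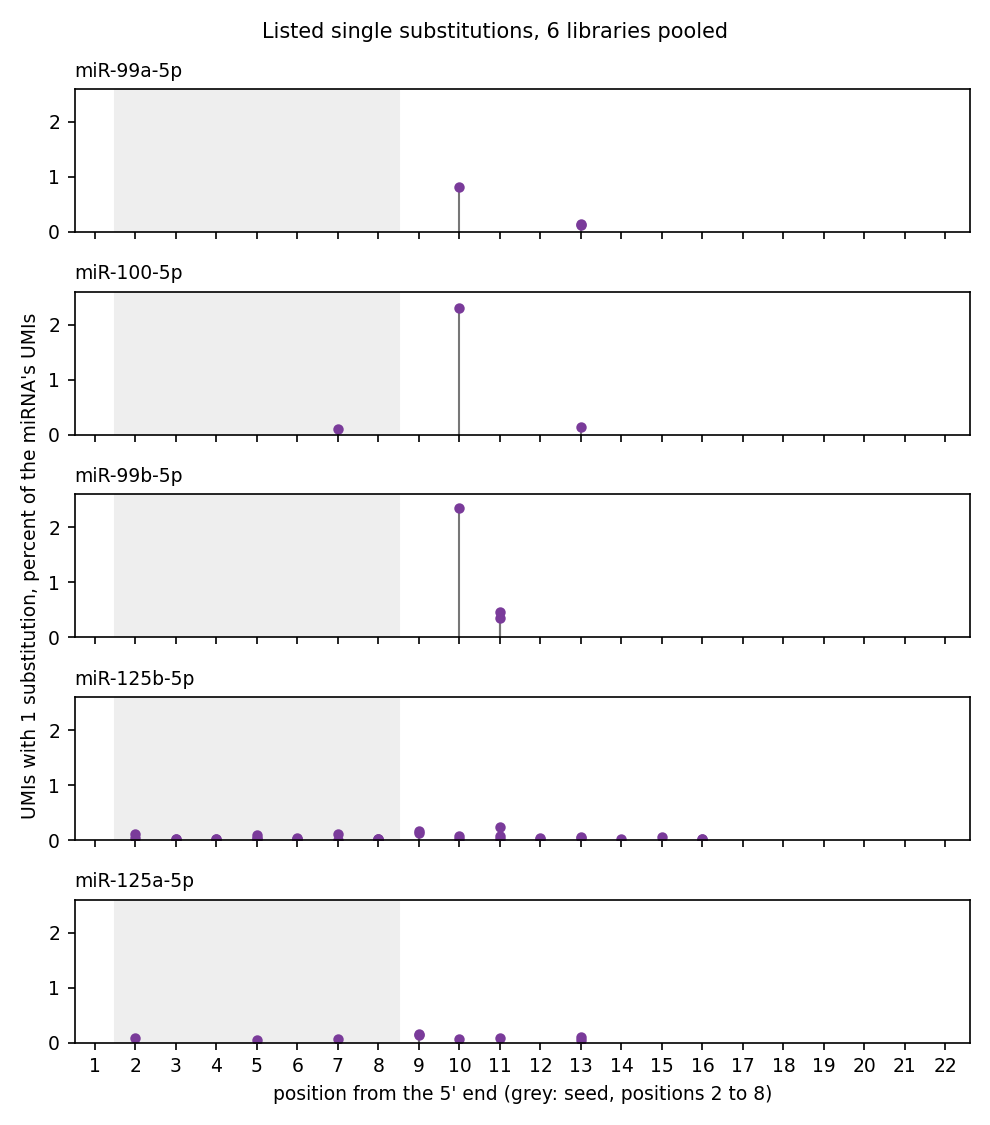
Pooled share of each listed single substitution of the 5 guides, in percent of the UMIs in the miRNA's annotated row over 6 libraries. Shares are drawn by position from the 5′ end, with the seed (positions 2 to 8) in grey. The substitutions at position 10 of miR-99b-5p, miR-100-5p and miR-99a-5p reach 2.35%, 2.31% and 0.809%, and all those of miR-125b-5p and miR-125a-5p lie below 0.3%.

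The substituted share was then read in each library. For miR-100-5p it was 2.36%, 1.89% and 2.21% in Sham and 2.30%, 2.32% and 2.49% in TAC. For miR-99b-5p it was 1.70%, 2.30% and 2.85% in Sham and 1.98%, 2.41% and 2.92% in TAC, on 26 to 60 substituted UMIs per library. For miR-99a-5p it was 0.729%, 0.947% and 0.838% in Sham and 0.827%, 0.696% and 0.883% in TAC. The share of miR-99a-5p was thus the lowest in every library, although its sequence differs from that of miR-100-5p by U16A alone. miR-100-5p exceeded miR-99b-5p in 2 of 6 libraries. This order was noticed in the same values, so a test on those values could not decide it, and none is given.

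Between TAC and Sham the shares overlapped for all 5 guides. The difference in percentage points was -0.0359 for miR-99a-5p, 0.151 for miR-99b-5p and 0.216 for miR-100-5p, with exact permutation p-values of 0.7, 0.7 and 0.3. For miR-125a-5p and miR-125b-5p it was 0.0103 and 0.0177, with exact permutation p-values of 0.8 and 1. Adjusted over these 5 tests, each p was 1.

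Sequences that begin elsewhere than the annotated strand carry another seed. The 3 listed sequences of Mir125b-2 without a substitution began 3 or 2 bases before the annotated start of miR-125b-2-3p. Of these, 2 began 3 bases before it, with 47 and 43 UMIs over all libraries, and 1 began 2 bases before it, with 65 UMIs. The last had 12, 6 and 2 UMIs in Sham and 20, 13 and 12 UMIs in TAC, in libraries of unequal depth. A single further sequence, with 187 UMIs, began 1 base inside miR-125b-5p and also carried the A9C change of that strand.

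Markers of cell types were read in the same libraries. All 7 muscle fibre miRNAs were tested, 0 were called higher and 2 lower in TAC (miR-206-3p and miR-208b-3p), and their summed level was 442736 to 588115 CPM in Sham and 634592 to 702505 CPM in TAC. The tested miRNAs of the endothelial (2 of 2), smooth muscle and pericyte (4 of 4), fibroblast (3 of 5), immune (6 of 6), erythroid (1 of 2) and neural (2 of 3) lists were not called. The fibroblast sum was 3829 to 8789 CPM in Sham and 9253 to 11778 CPM in TAC, without miR-199a-3p, which is listed only as a row shared with miR-199b-3p. All 3 tested of 6 epithelial miRNAs were lower in TAC, with a list sum of 22.5 to 70.6 CPM in Sham and 4.97 to 12.2 CPM in TAC, and the liver miRNA miR-122-5p was higher, at 2.81 to 16.4 CPM against 72.5 to 1989 CPM. miR-124-3p, miR-200c-3p and miR-141-3p were not listed. The part of these differences in the members' values was not tested.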

How the data were processed

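Small RNA of 3 Sham and 3 TAC libraries was made with the QIAseq miRNA kit, per the labels' protocols. The deposited tables hold raw UMI and read counts per mature miRNA, transcript and unannotated sequence, per the file headers. The submitters' processing notes name GRCm38, and the sources used here give no aligner or counting rule. UMI counts of all miRNAs were tested with edgeR 4.0.16 in R 4.3.3 (TMM scaling, two-sided quasi-likelihood F test) after filterByExpr, whose minimum was 10 for a library's count and 15 for the total, and p-values were adjusted by Benjamini-Hochberg over 322 miRNAs at a threshold of 0.05. Every edgeR adjusted p in the text comes from this fit unless another setting is named. Log2 ratios used UMIs plus 0.5, except in the SDs of the 28 pairs of guides. Those SDs, the shares and the ratios not on the log2 scale used UMIs as counted. Permutation tests were exact and two-sided, and cannot give a p under 0.1 with 3 libraries a group. Log2 CPM for likeness used a prior count of 2.

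Same-numbered Sham and TAC libraries deviated together from their group means (r across 322 miRNAs 0.33, 0.31 and 0.59), and by the criterion of r above 0.1 the numbers were read as pairing. Deviations from a group's own mean cancel out within the group, so these r values are not independent of each other. What the numbers mark is not given, and Sham 2 with TAC 1 (0.39) and Sham 1 with TAC 2 (0.34) correlated as much, so the pairing behind the replicate block is uncertain. In the names of the count columns the TAC libraries are numbered before the Sham libraries, and the groups and that order cannot be told apart.

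Alternatives were other scalings (upper quartile, RLE, none beyond library size), no filter, DESeq2 1.42.0, limma-voom (limma 3.58.1), reads in place of UMIs, a pseudocount of 1, the replicate block, and leaving out each library or both numbered 3. Hairpins and hosts came from GENCODE M21. Unannotated sequences were matched to mature strands allowing 1 substitution, and 8 that matched more than 1 miRNA were left out of the shares. Named with values were all members, the let-7 rows of their clusters, miR-351-5p, the 3 miRNAs most like miR-99a-5p and miR-125b-5p, and the 3 unannotated sequences with most UMIs. The members and lists were chosen with earlier results of these data known, and 5 ratios and all substituted shares were added after their values were seen. The shares within each seed family and the SDs of the pairs of guides were not among the results chosen beforehand either. Fragments of tRNA and piRNA rows were not used here. Counting limits the precision of strands with few UMIs, such as the 4 to 14 UMIs of miR-125a-3p.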

Additional observations from a re-analysis of the deposited data

How the results depend on the processing

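Over 135 alternative settings of the 9 fold changes, 118 kept direction and side of the threshold, 14 turned direction and 3 passed the threshold; the cause was not tested. With the replicate block miR-100-5p passed at 0.60 (edgeR adjusted p = 0.0300), and no other member's call changed. Leaving out both libraries numbered 3, miR-125b-1-3p passed at 0.75 and miR-125b-2-3p at 0.67, while miR-99a-3p turned to 0.16 and miR-99b-3p to 0.063. miR-125b-5p turned to -0.19 with library size only, and miR-99a-3p to 0.040 with upper-quartile factors and 0.0092 with no filter. Library size only lowered the others too. It gave 0.27 for miR-100-5p, 0.057 for miR-99a-5p, 0.21 for miR-125b-1-3p and 0.15 for miR-125b-2-3p. For miR-99b-5p it gave -0.72, for miR-125a-5p -0.61, for miR-99b-3p -0.42 and for miR-99a-3p -0.29. Leaving out 1 library, log2 fold changes ran from -0.016 to 0.29 for miR-125b-5p, -0.61 to 0.18 for miR-125a-5p, -0.71 to 0.060 for miR-99b-5p, -0.22 to 0.14 for miR-99a-3p, -0.29 to 0.26 for miR-99b-3p, 0.34 to 0.87 for miR-100-5p, 0.14 to 0.62 for miR-99a-5p, 0.28 to 1.09 for miR-125b-1-3p and 0.31 to 0.63 for miR-125b-2-3p. The number of called miRNAs was 71, 111 with the replicate block, 129 without both libraries numbered 3 (337 tested), and 17 (without Sham 1) to 73 (without Sham 3) leaving out 1 library; it was 29 without Sham 2, 32 without TAC 1 and 24 without TAC 2. Library size only called 78, with 10 higher and 68 lower against 20 and 51 with TMM. DESeq2 called 73 of 369. The 144 alternative differences in ratios and substituted shares stayed within 1 pooled SD between libraries of the reported ones, but 9 of them, each from leaving out 1 library, had the other sign. The log2 ratio of miR-125b-1-3p to miR-125b-2-3p went from 0.18 to -0.26 without TAC 3, and the A10C share of miR-99b-5p from 0.15 to -0.14 points without Sham 1. Others shrank, that of miR-125b-5p to miR-125b-2-3p from -0.30 to -0.063 without TAC 1, of miR-99b-5p to miR-99b-3p from -0.25 to -0.045 without TAC 2, of miR-99a-5p to miR-125b-5p from 0.29 to 0.10 without Sham 2 and of miR-99a-5p to miR-100-5p from -0.21 to -0.099 without TAC 3.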
